A study of Arabidopsis thaliana with 24 samples.

Results

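The circadian clock genes described here are 10 core components of the Arabidopsis thaliana clock, taken by locus identifier from a table of 32678 loci: CCA1, LHY, PRR9, PRR7, PRR5, TOC1, ELF3, ELF4, LUX and GI. All 10 were in the table. The rule names known core clock components by locus and uses no measured value. The set was nevertheless chosen with earlier results of these data known.

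Messenger RNA of whole seedlings was counted in 24 libraries, 3 for each of 8 groups, to compare responses to brassinolide (BL), the most active brassinosteroid (BR), in a receptor mutant and in a hormone-deficient mutant. The groups at each age were the bri1-701 brl1 brl3 triple mutant with BL, the untreated triple mutant, cpd with BL and untreated cpd, at 24 days and at 7 days. In the triple mutant the BR receptor gene BRI1 and 2 related receptor genes, BRL1 and BRL3, are mutated. In cpd the mutated gene is CPD, which encodes an enzyme of BR biosynthesis, and its allele is not named in the labels. All 8 groups are BR mutants, and no wild type was analysed here. The sources used here give no BL dose, length of treatment, light cycle or hour of harvest. The sample labels write brl1-701 where the design text has bri1-701, which is used here. Whether replicates were grown or pooled separately is not stated, so p-values cover only the spread among these libraries, and that spread may be technical.

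The plant clock is a loop of transcription factors that repress each other at successive times of day. CCA1 and LHY, related MYB factors, peak around dawn, the pseudo-response regulators PRR9, PRR7 and PRR5 follow through the day, and TOC1 and the evening complex of ELF3, ELF4 and LUX act in the evening and at night. A level measured at a single time therefore reflects the hour of harvest as well as any effect of genotype, age or treatment, and in seedlings the clock gates growth, partly through the bHLH factors PIF4 and PIF5.

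Stretches of the promoters are shown because 2 sequence motifs, each found in 5 members, are shared by only 1 of them, LUX. The evening element, AAAATATCT on either strand, is known as a binding site of CCA1, LHY and their relatives. It was present in the 1000 bases upstream of 5 of 10 members (PRR5, TOC1, ELF4, LUX and GI) and of 7.24% of 27443 promoters of the same length. The G-box, CACGTG, bound by bZIP and bHLH factors, was present upstream of 5 members (CCA1, LHY, PRR9, PRR7 and LUX) and of 14.8% of promoters. The stretches below are from RefSeq (build TAIR10.1), read 5′ to 3′ on the strand of the gene, with the motif or its reverse complement in capitals. Evening elements stood in the first 5 stretches, and that of GI holds 2 of its 3 matches.
PRR5, chr5:8358792-8358851, minus strand: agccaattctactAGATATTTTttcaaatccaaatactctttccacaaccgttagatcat
TOC1, chr5:24674787-24674846, plus strand: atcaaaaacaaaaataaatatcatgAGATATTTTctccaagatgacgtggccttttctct
ELF4, chr2:16735455-16735514, minus strand: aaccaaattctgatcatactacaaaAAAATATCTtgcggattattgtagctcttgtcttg
LUX, chr3:17182964-17183023, plus strand: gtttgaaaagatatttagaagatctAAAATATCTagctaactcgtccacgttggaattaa
GI, chr1:8060932-8060991, plus strand: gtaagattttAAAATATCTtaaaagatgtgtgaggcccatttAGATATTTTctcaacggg
The G-box stood in the other 4 stretches, and PRR9 holds 2 matches.
CCA1, chr2:19245371-19245430, plus strand: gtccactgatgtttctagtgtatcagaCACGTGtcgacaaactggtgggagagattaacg
LHY, chr1:37919-37978, minus strand: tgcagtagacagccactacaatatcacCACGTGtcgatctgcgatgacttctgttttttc
PRR9, chr2:19232342-19232441, plus strand: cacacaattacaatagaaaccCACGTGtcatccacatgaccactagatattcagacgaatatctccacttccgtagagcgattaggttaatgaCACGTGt
PRR7, chr5:642199-642258, minus strand: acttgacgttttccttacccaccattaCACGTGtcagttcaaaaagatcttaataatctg
Of the other motifs searched on both strands, the CCA1-binding site AAAAATCT was present upstream of LHY, PRR9 and PRR5 and of 21.1% of promoters, and none of its matches in the members overlapped an evening element. The LUX-binding site, GATACG or GATTCG, was present upstream of 8 members and of 39.8% of promoters. The BR response element, CGTGTG or CGTGCG, was present upstream of 1 member, CCA1, and of 21.1% of promoters. A match describes these letters and is no evidence of binding.

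Libraries of 24 days held 17243503 to 20563151 counts, and those of 7 days 10180880 to 12531699. The spread between replicates also differed with age, with a biological coefficient of variation of 15% at 24 days and 2.01% at 7 days. Over all genes replicate pairs of 24 days differed by 6.38 to 63.4 times counting noise (chi-square per degree of freedom). Those of 7 days differed by 1.13 to 1.51 times, close to counting noise alone. The mutated genes went with the labels, since BRI1 had 46.9 to 50.1 CPM (the read count scaled to a normalised library of fixed size) in the untreated 7-day triple mutant against 164 to 175 CPM in untreated 7-day cpd, and CPD had 429 to 438 CPM against 64.3 to 71.2 CPM. These values include any reads from the unmutated parts of each gene. In 7-day cpd the summed level of 8 root markers was 65.7 to 71.8 CPM with BL against 120 to 131 CPM without, and that of 4 shoot markers was 3222 to 3314 CPM against 2392 to 2466 CPM. In the 7-day triple mutant the root sum was 136 to 144 CPM with BL against 125 to 130 CPM without, and the shoot sum was 2842 to 2931 CPM against 2496 to 2670 CPM. Over the 12 libraries of 24 days the root sum was 111 to 267 CPM and the shoot sum 2520 to 3591 CPM. A single gene made up most of each sum, PYK10 at 109 to 263 CPM of the root sum and RBCS1A at 1717 to 2612 CPM of the shoot sum. The shoot marker LHCB1.1, a chlorophyll-binding protein gene, had a median of 30.2 CPM (19.8 to 55.6) at 24 days against 309 CPM (249.8 to 369.7) at 7 days, without overlap. The other shoot markers went the other way, with higher medians at 24 days than at 7 days. RBCS2B had 551 against 297 CPM, PSAD1 332 against 251 CPM and RBCS1A 1954 against 1866 CPM. The 5 flower markers summed to 4.25 to 12.7 CPM at 24 days and 7.46 to 14.3 CPM at 7 days. Of all these markers 1, the root marker COBL9, had 0 counts in every library of 7 days. Of the other root markers IRT1 and EXPA18 had at most 1 count in a library of 7 days, EXPA7 at most 2, CASP1 at most 3 and PRP3 at most 4. The 7-day root sum was thus almost all PYK10 (58.35 to 130.6 CPM) and CASP2 (69 to 147 counts). Its difference with BL describes PYK10 and CASP2 and not root markers in general. Whether root tissue was fully sampled was not tested. In whole seedlings fewer cells of a type and less RNA per cell cannot be told apart, and the part of tissue make-up in the clock gene values below was not tested.

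Levels of different genes were compared as CPM per kilobase of annotated exon. At 24 days TOC1 stood first, at 208 to 231 CPM per kilobase over the 12 libraries, then PRR7 at 96.9 to 135 and ELF3 at 77.3 to 90.1 CPM per kilobase. PRR5 (20.99 to 31.7) overlapped both LUX (26.3 to 34.0) and GI (20.8 to 25.8 CPM per kilobase), followed by ELF4 (6.70 to 13.4), PRR9 (0.759 to 3.75), CCA1 (0.173 to 0.590) and LHY (0 to 0.104 CPM per kilobase). Apart from those of PRR5, neighbours in this order did not overlap. At 7 days PRR7 stood first, at 112 to 134 CPM per kilobase, ahead of TOC1 at 54.4 to 77.1 and PRR5 at 33.6 to 39.8 CPM per kilobase. ELF3 (26.3 to 31.2), GI (22.9 to 28.5) and LUX (23.6 to 26.6 CPM per kilobase) overlapped. ELF4 (4.77 to 10.7) lay above PRR9 (3.06 to 4.68), which overlapped CCA1 (1.99 to 4.52), and LHY was lowest at 0.305 to 0.521 CPM per kilobase. LHY was thus the lowest member in every library of both ages, with CCA1 and PRR9 next.

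**Figure D1:**
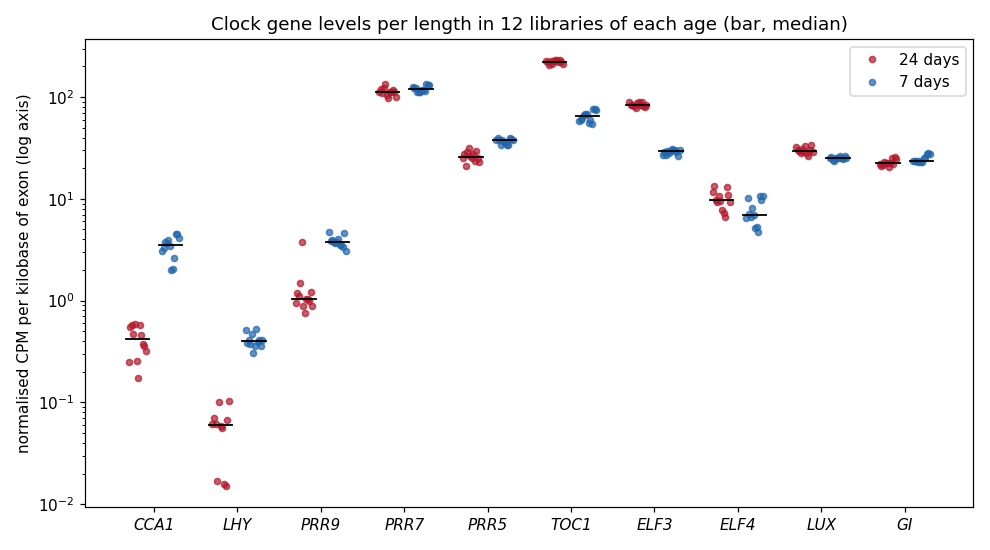
Normalised CPM per kilobase of exon (log axis) of each clock gene in the 12 libraries of 24 days (red, left of each pair) and of 7 days (blue, right), with the median as a bar. A library with 0 LHY counts at 24 days cannot be drawn on this axis. TOC1 leads at 24 days and PRR7 at 7 days, and LHY is lowest at both.

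At 24 days the dawn factors CCA1 and LHY and the day regulators PRR9 and PRR5 were lower than at 7 days in both untreated genotypes. TOC1 and the evening complex genes ELF3, ELF4 and LUX were higher, and PRR7 and GI did not pass in edgeR. The counts were 4 members higher and 4 lower of 10 in the triple mutant, where 69.4% of 19935 genes passed, 34.9% higher and 34.5% lower. In cpd they were again 4 and 4, where 69.9% passed, 34.9% in each direction. A share of 8 in 10 beside such a background is not a result about the members, and the sizes below are given as a description of each gene. Differences that passed and were at least 2-fold were found for 4 members in the triple mutant, beside 24.6% of genes, and for 5 members in cpd, beside 25.4%. Age cannot be told apart from the hour of harvest or from a batch of libraries, since the 2 ages share no library and the labels give neither an hour nor a batch. The age comparison used 1 estimate of spread for both ages, so its SEs can be too small for the 24-day part.

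CCA1 (AT2G46830, chr2:19245591-19248915, plus strand), a MYB repressor of evening genes, had 1.30, 1.65 and 0.711 CPM in the untreated 24-day triple mutant against 9.81, 10.6 and 9.30 CPM at 7 days. In untreated cpd it had 0.683, 1.52 and 1.57 CPM at 24 days against 8.24, 8.73 and 10.04 CPM at 7 days. Every 24-day library lay below every 7-day library, by log2 -3.08 ± 0.28 (SE) in the triple mutant and -2.86 ± 0.27 in cpd (quasi-likelihood test of edgeR, Benjamini-Hochberg adjusted p = 4.08e-09 and 9.58e-09). These 24-day levels rest on 9 to 33 counts per library over all 4 groups.

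LHY (AT1G01060, chr1:33365-37871, minus strand), the partner of CCA1, had 0 to 7 counts per library at 24 days against 12 to 23 counts at 7 days, although the 24-day libraries were larger. In the untreated triple mutant the counts were 1, 6 and 4 at 24 days against 15, 17 and 12 at 7 days, and in untreated cpd 4, 5 and 4 against 21, 13 and 14. Neither genotype's ages overlapped. The fitted differences were log2 -2.64 ± 0.47 and -2.73 ± 0.45 (edgeR adjusted p = 4.49e-05 and 1.71e-05), sizes that so few counts leave uncertain. LHY was too low for the within-age test at 24 days, where 9 of the 10 members were tested.

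TOC1 (AT5G61380, chr5:24674963-24678550, plus strand), the evening pseudo-response regulator that represses CCA1 and LHY, had 644, 610.3 and 641 CPM in the untreated 24-day triple mutant against 186, 188 and 188 CPM at 7 days. In untreated cpd it had 647, 632 and 584 CPM at 24 days against 162, 165 and 171 CPM at 7 days. The ages lay far apart in both genotypes, by log2 1.71 ± 0.05 in the triple mutant and 1.87 ± 0.05 in cpd (edgeR adjusted p = 2.76e-16 and 7e-17). ELF3 (AT2G25930, chr2:11058944-11063324, plus strand), the scaffold of the evening complex, had 226, 218 and 242 CPM in the untreated 24-day triple mutant against 80.4, 76.3 and 79.6 CPM at 7 days. Its values in untreated cpd were 247, 235 and 231 CPM at 24 days against 73.4, 77.9 and 73.4 CPM at 7 days. ELF3 was higher by log2 1.49 ± 0.06 in the triple mutant and by 1.63 ± 0.06 in cpd without overlap (edgeR adjusted p = 9.85e-15 and 2.96e-15).

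The ratio of TOC1 to CCA1 reads restates the values given above within each library and is not a separate result. TOC1 had 371 to 1369 reads for each CCA1 read in the 12 libraries of 24 days, against 17.1 to 29.8 in those of 7 days. Its ratio to GI was 5.55 to 7.23 at 24 days against 1.42 to 1.92 at 7 days. Neither ratio overlapped between the ages in any genotype or treatment. Both ratios compare libraries within a gene pair and are not ratios of levels per length. The share of all gene pairs whose ratios separate the ages in this way was not computed.

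PRR9 (AT2G46790, chr2:19232607-19235179, plus strand), the earliest day regulator, had 2.05, 2.60 and 2.40 CPM in untreated 24-day cpd against 9.89, 8.13 and 8.37 CPM at 7 days, a difference of log2 -1.94 ± 0.32 (edgeR adjusted p = 1.74e-05). In the untreated triple mutant it had 3.26, 8.23 and 1.93 CPM at 24 days against 7.88, 7.82 and 8.01 CPM at 7 days. Replicate 2 of the 24-day triple mutant thus stood at the 7-day level, and the 2 ages overlapped. Among the 12 libraries of 24 days that library also had the highest CCA1 (1.65 CPM), PRR7 (447 CPM) and PRR5 (54.4 CPM). It had the lowest ELF3 (218 CPM), and the remaining members lay within the range of the other libraries. Over all genes its difference from replicate 3 was the largest of any replicate pair, at 63.4 times counting noise (chi-square per degree of freedom). The difference was log2 -0.88 ± 0.30 (edgeR adjusted p = 0.0137), and the call was lost without replicate 1 (-0.70, adjusted p = 0.0671) or replicate 3 (-0.50, adjusted p = 0.078) of that group, while without replicate 2 it was -1.63 (adjusted p = 1.07e-06).

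PRR5 (AT5G24470, chr5:8356204-8358546, minus strand), a later day regulator, had 49.6, 54.4 and 44.8 CPM in the untreated 24-day triple mutant against 55.9, 62.6 and 59.4 CPM at 7 days, and 42.5, 47.5 and 35.3 CPM against 62.3, 65.2 and 62.6 CPM in cpd. The ages did not overlap in either genotype, with differences of log2 -0.30 ± 0.10 and -0.63 ± 0.10 (edgeR adjusted p = 0.00833 and 6.05e-06). The call in the triple mutant was lost without replicate 2 at 7 days (adjusted p = 0.0542) or replicate 3 at 24 days (adjusted p = 0.0555). PRR7 (AT5G02810, chr5:637681-642030, minus strand) had 406, 447 and 345 CPM in the untreated 24-day triple mutant against 357, 355 and 359.6 CPM at 7 days. It differed by log2 0.11 ± 0.08 there and by -0.12 ± 0.08 in cpd, neither past the edgeR test, with 95% intervals of -0.03 to 0.26 and -0.27 to 0.03. In the triple mutant PRR7 passed in limma-voom (0.12, adjusted p = 0.0268) and without replicate 3 of the untreated 24-day group (0.21, edgeR adjusted p = 0.0104).

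ELF4 (AT2G40080, chr2:16734294-16734953, minus strand), a small subunit of the evening complex, had 5.86, 6.70 and 6.04 CPM in the untreated 24-day triple mutant against 4.02, 4.94 and 4.22 CPM at 7 days, a difference of log2 0.45 ± 0.16 (edgeR adjusted p = 0.0183) without overlap. That call was lost without replicate 1 (adjusted p = 0.06) or replicate 3 (adjusted p = 0.0546) of the 7-day group. In cpd ELF4 was higher by 0.56 ± 0.16 (edgeR adjusted p = 0.00412) with overlapping ranges. LUX (AT3G46640, named PCL1 in RefSeq, chr3:17183042-17186959, plus strand), the DNA-binding subunit, was higher by 0.25 ± 0.07 in the triple mutant and 0.29 ± 0.07 in cpd (edgeR adjusted p = 0.00612 and 0.00152). Whether reads were counted by strand is not stated, and LUX exons overlap those of AT3G46650 on the other strand over 698 bases. AT3G46650 had 1 to 9 counts per library against 944 to 2480 for LUX. GI (AT1G22770, chr1:8061751-8067790, plus strand), which stabilises the F-box protein ZTL and promotes flowering, differed by log2 -0.04 ± 0.06 in the triple mutant and -0.13 ± 0.06 in cpd, neither past the edgeR test (95% intervals -0.16 to 0.08 and -0.25 to -0.01), and limma-voom called it lower in cpd (-0.13, adjusted p = 0.0209).

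**Figure D2:**
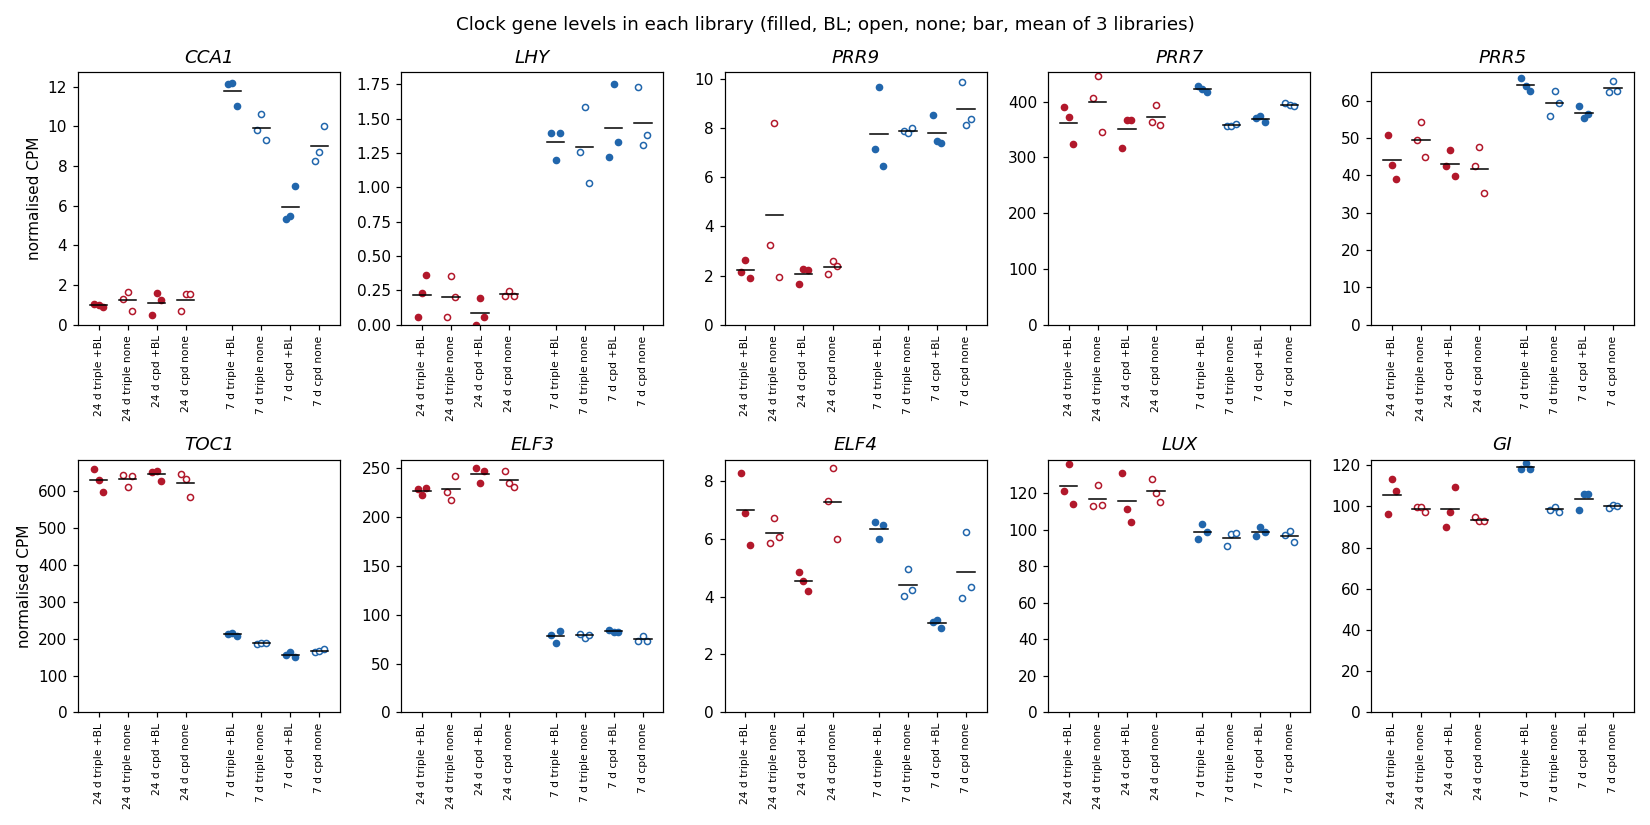
Normalised CPM of each clock gene in every library, 24 days in red and 7 days in blue, filled with BL and open without, with bars at the mean of 3 libraries. CCA1, LHY and PRR9 are low and TOC1 and ELF3 high at 24 days, and ELF4 in cpd is lower with BL at both ages.

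Genes that work beside the members were described by lists chosen with earlier results known. Of 12 morning-phased RVE and LNK genes 11 were tested, and at 24 days 1 was higher and 7 lower than at 7 days in both genotypes, with a median of log2 -0.74 in the triple mutant and -0.88 in cpd, beside 0.02 and 0.01 over all genes, of which 69.4% and 69.9% were called. The shares called in the lists that follow are read against the same background. RVE8, a MYB-like activator of evening genes, was lower by log2 -1.55 ± 0.23 in the triple mutant and -2.93 ± 0.23 in cpd, and LNK2, a co-activator, by -2.45 ± 0.16 and -2.52 ± 0.16 (largest edgeR adjusted p = 4.27e-06). RVE7, a MYB-like factor related to CCA1, was the higher gene (1.23 ± 0.13 and 0.83 ± 0.13, largest edgeR adjusted p = 1.19e-05). Among 17 other clock components 6 were higher and 2 lower in the triple mutant, and 9 higher and 3 lower in cpd. JMJ30, an evening-phased histone demethylase gene named here after its values were seen, rose by log2 4.06 ± 0.14 and 4.48 ± 0.15 (largest edgeR adjusted p = 2.81e-15). Its mean was 85.8 CPM at 24 days against 5.13 CPM at 7 days in the triple mutant, and 100 CPM against 4.51 CPM in cpd.

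Among 11 clock outputs 6 were higher and 3 lower at 24 days in the triple mutant, and 7 higher and 4 lower in cpd. The RNA-binding protein gene GRP7 was higher by log2 1.70 ± 0.09 in the triple mutant and by 2.21 ± 0.09 in cpd, and PIF5 by 0.72 ± 0.05 and 0.94 ± 0.05 (largest edgeR adjusted p = 2.17e-10). Among 7 light input genes 0 were higher and 4 lower in the triple mutant, and 1 higher and 2 lower in cpd. PHYB, the main red light receptor, was lower by -0.94 ± 0.07 and -0.93 ± 0.07 (largest edgeR adjusted p = 4.38e-10).

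**Figure D3:**
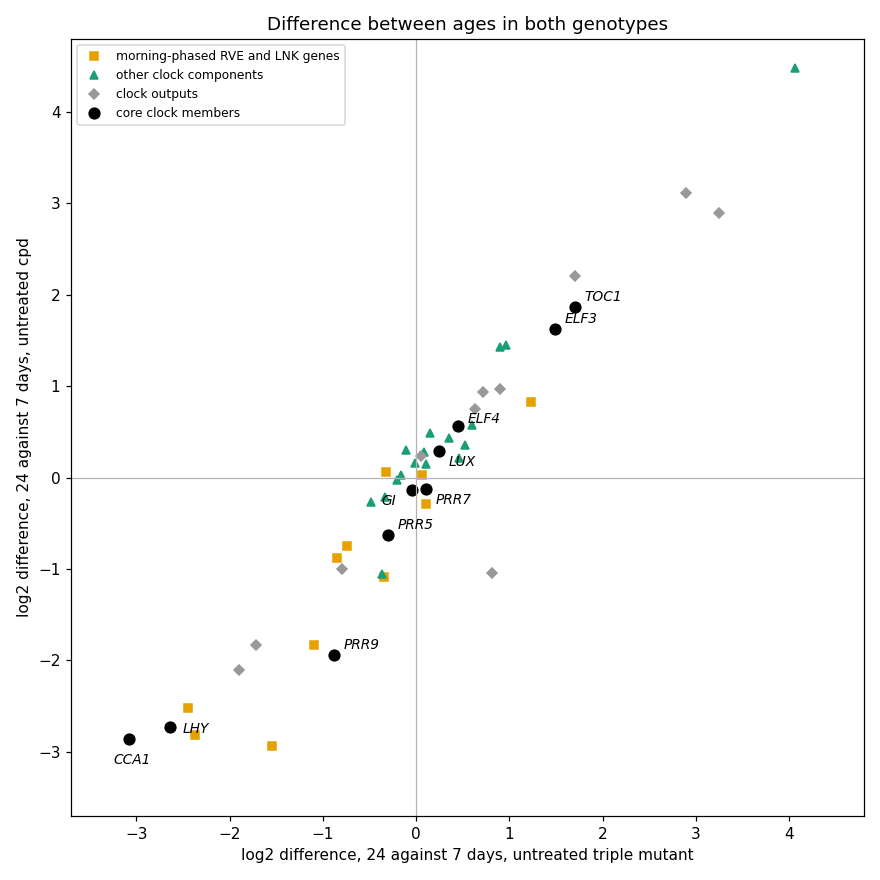
Log2 difference of 24 against 7 days in the untreated triple mutant (horizontal axis) and in untreated cpd (vertical axis) for the tested clock genes (black) and 3 lists of related genes. CCA1 (-3.08 and -2.86) and LHY (-2.64 and -2.73) lie lowest among the members, TOC1 (1.71 and 1.87) and ELF3 (1.49 and 1.63) highest, and PRR7 and GI close to 0.

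With BL in 7-day cpd, 1 member was higher and 5 were lower of 10, beside 57.3% of 18378 genes called, so the count is near the background. The median of the members was log2 -0.09, against 0.00 over all genes. In direction, 27.7% of genes were higher and 29.5% lower. The sizes were largest in CCA1 and ELF4 (log2 -0.60 and -0.63), and the other 4 calls lay between -0.16 and 0.15.

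CCA1 had 5.33, 5.49 and 6.99 CPM with BL against 8.24, 8.73 and 10.04 CPM without BL, all treated libraries below all untreated ones (log2 -0.60 ± 0.13, edgeR adjusted p = 4.78e-05). LHY, in contrast, had 1.22, 1.75 and 1.33 CPM with BL against 1.73, 1.30 and 1.38 CPM without BL, with overlap (-0.05 ± 0.28, 95% interval -0.60 to 0.50). These few LHY counts leave room for a fall of the size seen in CCA1.

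Of the day regulators PRR7 had 371, 374 and 363 CPM with BL against 398, 393 and 392 CPM without BL (log2 -0.09 ± 0.03, edgeR adjusted p = 0.00101). PRR5 had 58.6, 55.3 and 56.4 CPM with BL against 62.3, 65.2 and 62.6 CPM without BL (-0.16 ± 0.05, adjusted p = 0.00386). Both genes fell without overlap, but by small amounts, and scaling by library totals alone, which puts the median of all genes at 0.099, put PRR7 at 0.01 (adjusted p = 0.833) and PRR5 at -0.06 (adjusted p = 0.311), both still below that median. PRR9 had 8.53, 7.47 and 7.4 CPM with BL against 9.89, 8.13 and 8.37 CPM without BL, with overlap and below the test (-0.18 ± 0.12, 95% interval -0.43 to 0.06).

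ELF4 had 3.12, 3.20 and 2.91 CPM with BL against 3.96, 6.22 and 4.33 CPM without BL (log2 -0.63 ± 0.18, edgeR adjusted p = 0.00172). The groups did not overlap, but untreated replicate 2 stood above the others, and without it the difference was -0.42 (adjusted p = 0.0676). ELF3 was the member that rose, with 84.5, 82.5 and 82.3 CPM with BL against 73.4, 77.9 and 73.4 CPM without BL (0.15 ± 0.04, adjusted p = 0.00247). TOC1 had 155, 163 and 151 CPM with BL against 162, 165 and 171 CPM without BL, with overlap (-0.09 ± 0.03, adjusted p = 0.0195). That small fall was lost in DESeq2 (adjusted p = 0.0619), without untreated replicate 3 (0.132) or BL replicate 1 (0.0625) or 3 (0.151), and stood at 0.01 under library totals (0.715), below the median of all genes there. LUX and GI did not pass the test (95% intervals -0.04 to 0.12 and -0.03 to 0.12).

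At 24 days BL in cpd left 1 of 9 tested members past the test, beside 9.72% of 19731 genes called. This was ELF4, with 4.86, 4.55 and 4.19 CPM with BL against 7.3, 8.45 and 6.0 CPM without BL. All treated libraries were below all untreated ones (log2 -0.68 ± 0.16, edgeR adjusted p = 0.0231), close to the difference at 7 days. The call was lost without untreated replicate 1 (adjusted p = 0.0655) or 2 (0.0968) or BL replicate 1 (0.058), 2 (0.0693) or 3 (0.0757), with differences of -0.56 to -0.73. CCA1 had 0.475, 1.60 and 1.25 CPM with BL against 0.683, 1.52 and 1.57 CPM without BL, with overlap (-0.18 ± 0.44). Its 95% interval of -1.03 to 0.68 includes the fall seen at 7 days. LHY had 0, 4 and 1 counts with BL against 4, 5 and 4 without BL, and a count of 0 allows up to 3 counts.

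The BL effect in cpd did not differ between the ages for any of 10 members past the test, beside 9.68% of 19935 genes called, and 0 members had an unadjusted p under 0.05 in edgeR. DESeq2 and limma-voom also called 0. For ELF4 the effect at 24 days minus that at 7 days was log2 -0.04 ± 0.24 (95% interval -0.51 to 0.43) and for CCA1 0.42 ± 0.41 (-0.38 to 1.23).

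In the 7-day triple mutant, whose 3 BR receptor genes are mutated, BL went with 4 higher and 0 lower members of 10, beside 22.4% of 18378 genes called, 11.4% higher and 11% lower. The 4 were PRR7, TOC1, ELF4 and GI, with a median over the 10 members of log2 0.15 against 0.00 over all genes. PRR7 had 428, 423 and 418 CPM with BL against 357, 355 and 359.6 CPM without BL (0.24 ± 0.03, edgeR adjusted p = 2.67e-12). GI had 118, 121 and 118 CPM with BL against 98.4, 99.8 and 97.5 CPM without BL (0.28 ± 0.04, adjusted p = 1.82e-08). TOC1 had 214, 214 and 208 CPM with BL against 186, 188 and 188 CPM without BL (0.18 ± 0.03, adjusted p = 7.23e-06). In these 3 abundant genes all treated libraries stood above all untreated ones, and the share of all genes that separate so was not computed. The replicates lay within a narrow range, a spread that may be technical. None of the 3 calls held in the fit described below that assumed the spread of the 24-day libraries.

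ELF4 had 6.57, 5.99 and 6.46 CPM with BL against 4.02, 4.94 and 4.22 CPM without BL in the 7-day triple mutant, a rise without overlap (log2 0.53 ± 0.16, edgeR adjusted p = 0.00907). It missed the threshold in DESeq2 (adjusted p = 0.0823) and without untreated replicate 1 (0.47, adjusted p = 0.0529). CCA1 had 12.1, 12.2 and 11.0 CPM with BL against 9.81, 10.6 and 9.30 CPM without BL. Its groups did not overlap, but the difference of 0.25 ± 0.11 missed the test (adjusted p = 0.0937). PRR5 was at 0.12 ± 0.05 (adjusted p = 0.0734), and passed without untreated replicate 2 (0.16, adjusted p = 0.0302). The remaining 4 members, LHY, PRR9, ELF3 and LUX, were within 0.05 of 0 on the log2 scale. Leaving out 1 library moved LHY between -0.09 and 0.21 and PRR9 between -0.21 and 0.10. The few counts of LHY and PRR9 thus leave room for a change.

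At 24 days BL in the triple mutant gave 0 calls among 9 tested members and 0 among all 19731 genes in edgeR, and also 0 in DESeq2 and in limma-voom. At an unadjusted p under 0.05 edgeR had 773 genes and 1 member, PRR9. PRR9 had 2.15, 2.63 and 1.89 CPM with BL against 3.26, 8.23 and 1.93 CPM without BL (log2 -1.0 ± 0.42, edgeR adjusted p = 0.946), and the groups overlapped. Without untreated replicate 2 the difference was -0.22, and without untreated replicate 3 it was -1.37. PRR7 had 389.6, 372 and 324 CPM with BL against 406, 447 and 345 CPM without BL, and GI had 96.2, 113 and 108 CPM against 99.7, 99.6 and 97.5 CPM. Both overlapped, with 95% intervals of -0.35 to 0.07 and -0.07 to 0.26. The BL effect in the triple mutant did not differ between the ages past the test for any of 10 members, beside 0.0752% of 19935 genes called, and 3 had an unadjusted p under 0.05 in edgeR. DESeq2 called 0 and limma-voom 1, PRR7. For PRR7 in edgeR the difference of effects was -0.38 ± 0.11 (edgeR adjusted p = 0.255), and it passed without replicate 3 of the untreated 24-day group (-0.47, adjusted p = 0.0185).

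Among BL-treated seedlings of 7 days, 6 members were higher and 0 lower in the triple mutant than in cpd, beside 53.4% of 18378 genes called, 27.5% higher and 25.9% lower. The share called is near the background, and the sizes varied. CCA1 had 12.1, 12.2 and 11.0 CPM in the triple mutant against 5.33, 5.49 and 6.99 CPM in cpd (log2 1.00 ± 0.12, edgeR adjusted p = 7.67e-11). ELF4 had 6.57, 5.99 and 6.46 CPM in the triple mutant against 3.12, 3.20 and 2.91 CPM in cpd (1.04 ± 0.17, adjusted p = 1.96e-07). TOC1 had 214, 214 and 208 CPM in the triple mutant against 155, 163 and 151 CPM in cpd (0.44 ± 0.03, adjusted p = 3.9e-20). CCA1, a dawn gene, was thus 1.99-fold higher, and the evening genes ELF4 and TOC1 2.05-fold and 1.35-fold higher, each without overlap. The share of all genes without overlap between these groups was not computed. PRR7, PRR5 and GI were higher by 0.19 ± 0.03, 0.18 ± 0.05 and 0.21 ± 0.04 (largest edgeR adjusted p = 0.00121). Library totals alone put the median of all genes at -0.093, and PRR5 then missed the test (0.09, adjusted p = 0.12). ELF3 was at -0.10 ± 0.04 (adjusted p = 0.0645), and passed without replicate 3 of the BL-treated triple mutant (-0.14, adjusted p = 0.0125).

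Without BL, the 7-day genotypes differed less. In the triple mutant 1 member was higher and 1 lower than in cpd, beside 27.9% of genes called, 12.9% higher and 15% lower. TOC1 had 186, 188 and 188 CPM in the triple mutant against 162, 165 and 171 CPM in cpd (log2 0.17 ± 0.03, edgeR adjusted p = 1.22e-05). PRR7 had 357, 355 and 359.6 CPM in the triple mutant against 398, 393 and 392 CPM in cpd (-0.14 ± 0.03, adjusted p = 6.15e-06). Neither gene overlapped between the genotypes. CCA1 and ELF4 differed by 0.14 ± 0.12 and -0.13 ± 0.17, with 95% intervals of -0.09 to 0.37 and -0.46 to 0.20.

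**Figure D4:**
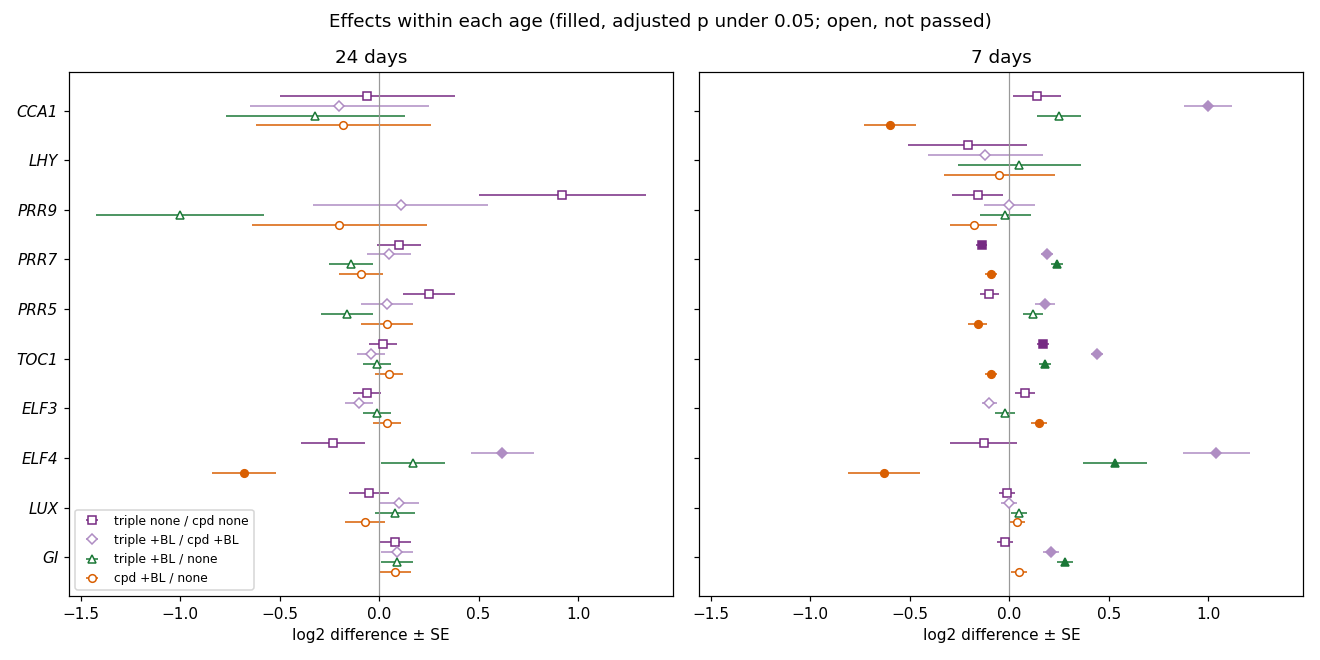
Log2 differences with SE of each clock gene within 24 days (left, LHY not tested) and 7 days (right), for BL against none in each genotype and triple mutant against cpd with and without BL, filled where the adjusted p is under 0.05. At 24 days only the 2 ELF4 comparisons that include BL-treated cpd are filled (0.62 and -0.68), and at 7 days CCA1 and ELF4 are lower with BL in cpd and about 1 log2 unit higher in the BL-treated triple mutant than in BL-treated cpd.

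The difference between the BL effects of the genotypes was tested directly. At 7 days the triple mutant exceeded cpd in its BL effect for 6 members and fell short for 1, beside 41% of genes called, 22.3% higher and 18.7% lower. ELF4 and CCA1 led, with effects higher by log2 1.16 ± 0.24 and 0.85 ± 0.17 (edgeR adjusted p = 3.78e-05 and 2.33e-05). PRR7, PRR5, TOC1 and GI had effects higher by 0.34 ± 0.04, 0.28 ± 0.07, 0.26 ± 0.05 and 0.23 ± 0.05 (largest edgeR adjusted p = 0.000663). GI missed the threshold under library totals alone (0.12, adjusted p = 0.056), which put the median of all genes at -0.098. The effect on ELF3 was lower by 0.17 (-0.17 ± 0.06, adjusted p = 0.0253). That call was lost in DESeq2 (0.0798) and without untreated cpd replicate 1 (0.0699) or 3 (0.0602), BL-treated cpd replicate 1 (0.0555) or BL-treated triple mutant replicate 2 (-0.11, 0.182). These interactions share libraries with the comparisons above and are not independent of them.

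Most of the 7-day calls were lost in an alternative fit that assumed the spread of the 24-day libraries. That fit also used a likelihood ratio test of edgeR in place of the quasi-likelihood test, so the 2 changes are not separated. In it 1 member passed for BL in cpd (ELF4), 0 for BL in the triple mutant, 0 between the untreated genotypes, 2 between the BL-treated genotypes (TOC1 and ELF4) and 1 for the difference of BL effects (ELF4).

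At 24 days 1 of 9 tested members differed between the BL-treated genotypes, beside 11.1% of 19731 genes called. ELF4 had 8.28, 6.89 and 5.78 CPM in the BL-treated triple mutant against 4.86, 4.55 and 4.19 CPM in BL-treated cpd, without overlap (log2 0.62 ± 0.16, edgeR adjusted p = 0.0315). The call was lost in a fit of these 2 groups alone (adjusted p = 0.0545), and without BL-treated cpd replicate 1 (0.0736), 2 (0.0855) or 3 (0.0879) or BL-treated triple mutant replicate 1 (0.0901) or 2 (0.0728). TOC1, which differed at 7 days, had 659, 630.0 and 597 CPM in the BL-treated triple mutant against 651, 655 and 628 CPM in BL-treated cpd, with overlap (-0.04 ± 0.07, 95% interval -0.18 to 0.10). Its interval lies below the 7-day difference of 0.44, and CCA1 (-0.20 ± 0.45, -1.09 to 0.69) likewise lies below its 7-day value of 1.00. Whether these genotype differences changed with age was not tested.

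Between the untreated 24-day genotypes 0 of 9 members passed, beside 1.04% of genes called, and 1 member, PRR9, had an unadjusted p under 0.05. PRR9 was at log2 0.92 ± 0.42 (edgeR adjusted p = 0.256), and ran from 0.14 without replicate 2 of the untreated triple mutant (adjusted p = 0.883) to 1.28 without its replicate 3 (adjusted p = 0.0488). DESeq2 and limma-voom also called 0 members. For the difference of BL effects at 24 days 0 of 9 members passed in edgeR, beside 2.75% of genes called, with 1 at an unadjusted p under 0.05. This was ELF4, at 0.85 ± 0.23 (adjusted p = 0.0782), which passed in DESeq2 (0.0408), in limma-voom (0.0221) and without untreated cpd replicate 3 (0.97, adjusted p = 0.044).

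Related genes at 7 days moved in both directions with BL. The background for the lists is 22.4% of genes called with BL in the triple mutant and 57.3% in cpd. Of 11 tested RVE and LNK genes 5 were higher and 2 lower with BL in the triple mutant (median log2 0.03), and 1 was higher and 6 lower in cpd (median -0.17), a share near the background in cpd. RVE4, a MYB-like activator of evening genes, was at 0.39 ± 0.04 in the triple mutant and -0.11 ± 0.04 in cpd, and LNK2 at 0.11 ± 0.03 and -0.22 ± 0.03, all past the test (largest edgeR adjusted p = 0.03). LNK4 rose in cpd (0.36 ± 0.04, adjusted p = 1.39e-11) and was at 0.01 ± 0.04 in the triple mutant. RVE2, a CCA1 relative, averaged 14.3 CPM in the untreated triple mutant and 24.7 CPM in untreated cpd (-0.79 ± 0.08, edgeR adjusted p = 2.23e-12). RVE2 in BL-treated cpd was at -0.21 ± 0.08 (adjusted p = 0.0121).

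Of 17 other clock components 0 were higher and 2 lower with BL in the 7-day triple mutant, and 4 were higher and 6 lower in cpd. FKF1, a blue light receptor and F-box protein, averaged 17 CPM with BL against 23 CPM without BL in cpd (log2 -0.44 ± 0.08, edgeR adjusted p = 4.01e-06), and ZTL, its homologue that marks TOC1 for degradation, fell by 0.20 (-0.20 ± 0.06, adjusted p = 0.00497). TIC, a nuclear clock regulator, fell in both genotypes, at -0.18 ± 0.03 in the triple mutant and -0.23 ± 0.03 in cpd (largest edgeR adjusted p = 2.04e-07). The ELF4 homologue EFL4 rose in cpd by 0.50 ± 0.11 (adjusted p = 8.87e-05), where ELF4 itself fell.

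Of 10 tested clock outputs 4 were higher and 2 lower with BL in the 7-day triple mutant, and 4 higher and 4 lower in cpd. PIF4, a bHLH factor that drives elongation, fell in the triple mutant (log2 -0.25 ± 0.05) and rose in cpd (0.42 ± 0.04), both past the test (largest edgeR adjusted p = 5.65e-05). PIF5 rose in the triple mutant (0.12 ± 0.03, adjusted p = 0.00202) and was at 0.05 ± 0.03 in cpd. GRP7 and GRP8 rose in both genotypes, GRP7 by 0.36 ± 0.03 in the triple mutant and 0.49 ± 0.03 in cpd, and GRP8 by 0.36 ± 0.04 and 0.32 ± 0.04 (largest edgeR adjusted p = 1.7e-11).

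Of 7 light input genes 1 was higher and 3 lower with BL in the 7-day triple mutant, and 3 higher and 3 lower in cpd. SPA1, a partner of the COP1 ubiquitin ligase, averaged 90.9 CPM with BL against 74.0 CPM without BL in the triple mutant (log2 0.30 ± 0.04), and 55.2 CPM against 98.3 CPM in cpd (-0.84 ± 0.04). PHYA fell in the triple mutant (-0.24 ± 0.02) and rose in cpd (0.32 ± 0.02), while PHYB fell in both (-0.29 ± 0.03 and -0.63 ± 0.03), as did the blue light receptor gene CRY2 (-0.12 ± 0.03 and -0.26 ± 0.03). The largest edgeR adjusted p among these 8 values was 0.00011.

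At 24 days, with BL in cpd, 0 of 11 RVE and LNK genes, 0 of 17 other clock components, 2 of 11 outputs and 1 of 7 light input genes passed, all 3 lower, beside 9.72% of all genes. AT1G69570, annotated as a Dof-type zinc finger protein, averaged 10.8 CPM with BL against 26.4 CPM without BL (log2 -1.28 ± 0.12, edgeR adjusted p = 9.3e-05). CDF2, a Dof repressor of flowering, averaged 11.6 CPM against 15.7 CPM (-0.43 ± 0.12, adjusted p = 0.0402), and PHYB 60.9 CPM against 87.6 CPM (-0.52 ± 0.10, adjusted p = 0.00635). PHYB was also lower with BL in 7-day cpd. Between the BL-treated genotypes 0 of 11 RVE and LNK genes passed, 1 of 17 other clock components was lower, and 1 was higher and 1 lower among 11 outputs and again among 7 light input genes, beside 11.1% of all genes. AT1G69570 averaged 22.8 CPM in the triple mutant against 10.8 CPM in cpd (1.07 ± 0.12, edgeR adjusted p = 0.000237) and PIF4 88.0 CPM against 141 CPM (-0.68 ± 0.12, adjusted p = 0.00456). PHYB was higher (0.55 ± 0.10, adjusted p = 0.00442), PHYA lower (-0.51 ± 0.10, adjusted p = 0.0073), and EFL2, an ELF4 homologue, lower (-0.33 ± 0.09, adjusted p = 0.032). In edgeR the unadjusted p was under 0.05 with BL in cpd for 0 RVE and LNK genes and for 3 other clock components, beside 4810 of all 19731 genes. For the RVE and LNK genes between the BL-treated genotypes that count was 0.

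Genes outside the set whose levels moved most like CCA1 and TOC1 from library to library were taken by the smaller of 2 Pearson correlations of log2 CPM, over the 12 libraries of 24 days and over the 12 of 7 days, among 8088 genes with a symbol. For CCA1 these were MT1C (r = 0.76 at 24 days and 0.89 at 7 days), OCT5 (0.73 and 0.85) and ABCG40 (0.70 and 0.79). For TOC1 they were CIPK15 (0.86 and 0.93), BGLU9 (0.77 and 0.74) and OST1 (0.73 and 0.81). The 12 libraries of an age share their genotypes, treatments and make-up, so these values are a description of the libraries.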

How the data were processed

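The authors deposited raw read counts per locus as whole numbers in a table of 24 library columns, all of which were used. Reads were handled with HTSeq 0.9.1, HISAT2 2.1.0 and Trimmomatic 0.36 against TAIR10, per the submitters' processing notes, which state neither settings nor strand nor annotation release. Groups came from the labels.

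The members and the lists of related and marker genes were chosen with earlier results of these data known. The naming rule took all 10 members, at most 4 genes of each related list per age with the smallest adjusted p within that age, and 3 genes most like CCA1 and TOC1.

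Counts were scaled with TMM factors, filtered with filterByExpr (minimum count 10) and fitted in a cell-means model (edgeR 4.0.16, R 4.3.3). Each age was fitted apart with 12 libraries, and comparisons between ages used all 24 libraries, in 14 comparisons. The quasi-likelihood test was adjusted by Benjamini-Hochberg over all genes tested, with a threshold of 0.05. The SE is the absolute log2 difference over the square root of F, and 95% intervals are 1.96 SE wide on each side. The filter passed 9 members at 24 days, all but LHY, and all 10 at 7 days and in the fit of both ages. CPM per library was scaled within an age, whereas means beside a comparison of ages come from the fit of both ages. Overlap of libraries between groups was described gene by gene, and its share over all genes was not computed in any comparison. A count of 0 allows 3 counts, or 0.146 to 0.174 CPM in a 24-day library and 0.239 to 0.295 CPM in a 7-day library, which covers counting error only. Alternatives were library totals, DESeq2 1.42.0 (size factors), limma-voom (limma 3.58.1), no filter, other sets of libraries, a replicate block and leaving out libraries. A further alternative at 7 days took the spread of the 24-day libraries and used a likelihood ratio test of edgeR.

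Tested on simulated counts for BL in cpd, edgeR recovered 79% of log2 changes of 1 and 15% of 0.5 at 24 days (19636 genes), against 100% and 94% at 7 days (18218 genes). The changed genes were drawn only from those above a cut on the mean count. These shares therefore do not cover genes with as few counts as 24-day CCA1 and LHY. Far fewer genes were changed than were called in the data, and libraries were drawn without variation shared by replicate number. The shares may therefore differ from those in the data. Gene positions and exon lengths are those of the TAIR10.1 annotation, a later release of the submitters' build.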

Additional observations from a re-analysis of the deposited data

Results flagged for a closer look

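A direct test of the difference between BL effects, in the 7-day triple mutant minus in 7-day cpd, passed for 7 clock genes, beside 41% of 18378 genes. The difference was log2 0.85 for CCA1, 1.16 for ELF4, 0.34 for PRR7, 0.28 for PRR5, 0.26 for TOC1 and 0.23 for GI, and -0.17 for ELF3. With the spread of the 24-day libraries assumed and a likelihood ratio test, ELF4 alone of these passed.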

How the results depend on the processing

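Of 2085 recomputed log2 differences of members, 2010 kept their side of the threshold with no called value changing sign, 55 lost the call, 17 gained it and 3 reversed. Of 1430 values past the test in neither setting 120 had another sign, and these are not among the reversals. The reversals came with library totals only, for PRR7 (0.007) and TOC1 (0.015) with BL in 7-day cpd and LUX (-0.092) between the 7-day BL-treated genotypes. That scaling moved the median of all genes by a like amount, to 0.099 for BL in 7-day cpd and -0.093 between the BL-treated genotypes. PRR7 and TOC1 stayed below the median of their comparison, as in the main fit, and LUX lay close to that of its own.

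The number of members called moved as follows. The 24-day spread assumed at 7 days, with a likelihood ratio test, was an alternative chosen after seeing the data. With it the number was 1 in place of 6 for BL in cpd, 0 in place of 4 for BL in the triple mutant, 0 in place of 2 for the untreated genotypes, 2 in place of 6 for the BL-treated genotypes and 1 in place of 7 for the difference of BL effects. At 24 days the BL-treated genotypes had 0 in place of 1 in a fit of these groups only. The 24-day difference of BL effects had 1 in place of 0 in DESeq2, in limma-voom and with the replicate block. The difference between ages of the BL effect in the triple mutant had 1 in place of 0 in limma-voom (PRR7, adjusted p = 0.0112) and without replicate 3 of every 24-day group. In a fit of the untreated triple mutant alone the age difference of PRR9 missed the test (adjusted p = 0.135).

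Leaving out 1 library gave 5 to 6, 3 to 5, 2 to 2, 6 to 7 and 6 to 7 members at 7 days for BL in cpd, BL in the triple mutant, the untreated genotypes, the BL-treated genotypes and the difference of BL effects. In the same order it gave 0 to 1, 0 to 0, 0 to 1, 0 to 1 and 0 to 1 at 24 days. For 24 against 7 days it gave 7 to 8 in the untreated triple mutant and 8 to 8 in untreated cpd. For the change of the BL effect with age it gave 0 to 1 in the triple mutant and 0 to 0 in cpd.

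Replicate numbers were not taken to pair the samples, since not every pair correlated over 0.1. Correlations of deviations over 18 same-numbered pairs ran from -0.05 to 0.76 at 24 days, with 15 over 0.1, and from -0.06 to 0.07 at 7 days, with 0 over 0.1. The main fit held no replicate term, so variation shared by same-numbered libraries of 24 days stayed in its error. With the replicate block ELF4 passed for the 24-day difference of BL effects (adjusted p = 0.0325), and the block changed no other call of a member.

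Depth limits 24-day LHY (0 to 7 counts in a library) and 24-day CCA1 (9 to 33 counts). A log2 change of 0.5 was recovered in 15% of simulated cases for BL in 24-day cpd.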
